A study of Mus musculus with 10 samples.

Results

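Neurog1, Neurod1, Neurod2, Neurod4, Neurod6, Nhlh1 and Nhlh2 encode neurogenic basic helix-loop-helix (bHLH) transcription factors. The set was given by name, and its chromatin was read as all peaks within 100 kb of the gene bodies in the RefSeq gene table of the GRCm38.p6 (mm10) build. These are 7 of 20661 autosomal coding genes, and all 7 were matched by symbol. Within their reach lay 66 of 76102 open regions of the genome. The material was E13.5 mouse cochlear epithelium, separated from the dissected duct with dispase and collagenase per the labels' protocol, although the ATAC titles read whole organ. Accessible DNA, which the Tn5 transposase cuts in ATAC-seq, was read in 3 libraries from wildtype embryos and 2 from embryos labelled SoxC double knockout. Sox4 was profiled with CUT&RUN, where a nuclease tethered to an antibody cuts around the bound factor, in 3 replicates of GFP positive cells sorted from wildtype p27kip1-GFP epithelium. The titles of these samples, however, read Sox4 ChIP. The single-cell RNA tables of the same study hold row numbers in place of gene names and were not used here.

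The labels do not name the deleted SoxC genes. A SoxC double knockout usually means loss of Sox4 and Sox11. The single-cell knockout sample is labelled Pax2cre with floxed SoxC alleles, a Cre active in the otic placode and its derivatives; the ATAC labels give no driver. Whether replicates came from separate litters or pools is not given, so p-values measure the spread between these libraries. The bodies of Sox4, Sox11 and Sox12 held ATAC peaks in all 5 libraries, with best ranks between 3395 and 11572 in wildtype and between 3517 and 7265 in knockout lists, so the lists show no missing gene body.

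Proneural bHLH factors bind DNA at E-boxes as dimers with ubiquitous E proteins and drive cells out of the progenitor state into neuronal differentiation. In the inner ear, Neurog1 is required for the neuroblasts that leave the otic epithelium to form the spiral and vestibular ganglia. Neurod1 acts after Neurog1 in their survival and differentiation, and Neurod4, Nhlh1 and Nhlh2 are expressed in differentiating neuroblasts of many ganglia. Neurod2 and Neurod6 are known mostly from maturing neurons of the brain. By this age most cochlear neuroblasts have left the duct, whose floor holds the prosensory domain. SoxC factors are HMG-box proteins that promote neuronal and sensory differentiation in several tissues.

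The 300-base RefSeq promoter windows of the 7 genes (build GRCm38.p6; 250 bases before and 50 after each transcription start) were searched on both strands for the E-box CANNTG, for the Sox core ACAATG, for the related core AACAAT and for a further core, ACAAAG. The first and second of these cores can overlap by 5 letters. Of 16456 autosomal coding promoters of the same length, 68.4% held an E-box, 10.7% ACAATG, 9.16% AACAAT, 16.5% ACAAAG and 29.2% any Sox core. The 250 bases upstream of the start are shown 5′ to 3′ on the gene's strand for the 4 genes whose promoters the peaks touch most; capitals mark E-boxes and Sox cores. Neurod4 is shown because it alone had a strong open promoter, Neurog1 for its Sox cores, Nhlh2 for its Sox4 peak and Neurod1 for the weak promoter beside its open gene body.
Neurod4 (chr10:130280255-130280504, minus strand): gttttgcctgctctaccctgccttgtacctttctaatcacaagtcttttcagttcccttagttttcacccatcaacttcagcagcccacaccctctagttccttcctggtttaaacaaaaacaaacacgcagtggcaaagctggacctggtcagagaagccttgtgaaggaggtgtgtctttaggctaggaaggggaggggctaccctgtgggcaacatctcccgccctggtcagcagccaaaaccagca
Neurog1 (chr13:56252181-56252430, minus strand): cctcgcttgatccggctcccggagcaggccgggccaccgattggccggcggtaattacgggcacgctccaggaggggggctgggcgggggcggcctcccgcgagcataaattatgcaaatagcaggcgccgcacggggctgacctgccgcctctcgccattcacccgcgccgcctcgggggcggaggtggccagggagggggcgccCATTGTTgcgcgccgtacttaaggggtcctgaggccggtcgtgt
Nhlh2 (chr3:102009895-102010144, plus strand): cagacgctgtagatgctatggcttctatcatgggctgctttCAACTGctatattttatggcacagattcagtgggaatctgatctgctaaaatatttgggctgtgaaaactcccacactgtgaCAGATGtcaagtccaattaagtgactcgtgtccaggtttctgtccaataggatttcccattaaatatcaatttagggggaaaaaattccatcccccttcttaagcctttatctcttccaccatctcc
Neurod1 (chr2:79456637-79456886, minus strand): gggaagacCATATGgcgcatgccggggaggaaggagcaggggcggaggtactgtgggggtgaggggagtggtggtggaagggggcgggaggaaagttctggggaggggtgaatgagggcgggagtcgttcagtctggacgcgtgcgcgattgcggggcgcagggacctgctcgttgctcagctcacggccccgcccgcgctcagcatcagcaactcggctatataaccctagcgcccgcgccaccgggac

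Neurog1 was the only one of the 7 with a Sox core in its window: CATTGT starting 44 bases upstream of the start and the overlapping ATTGTT starting 43 bases upstream. Neurod4 had neither motif around this start; the window of its second annotated start held 1 E-box, CAGCTG, 4 bases downstream of that start. Nhlh2 held 4 E-boxes, Neurod2 3, Neurod6 and Nhlh1 2 each, and Neurog1 and Neurod1 1 each. The promoters also differed in CpG content. Neurog1 (32 CpG) and Neurod1 (26) lay above the median of 14 over all promoters and Neurod2 (16) close to it, while Neurod4 (4), Neurod6 (3), Nhlh1 (2) and Nhlh2 (2) were CpG-poor.

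The deposited lists gave a fold, −log10 p and −log10 q per peak. Peaks of a library were here ranked by −log10 p, with rank 1 the strongest, and fold is the enrichment over local background that the authors deposited for the peak. The files hold no read counts, so depth is unknown. Merged autosomal peaks numbered 145099 to 173032 in wildtype lists against 192810 to 208902 in knockout lists, and the −log10 p at rank 50000 was 8.75 to 19.0 in wildtype and 50.5 to 104 in knockout. List length and peak significance thus moved with genotype and cannot be told apart from it, which is why libraries were compared by rank among equal numbers of peaks. Caller settings are stated in the names of the knockout lists only, so whether peak calling also differed by genotype is not known. Raw folds were also higher in knockout: over all fitted regions their medians were 9.34, 6.73 and 5.95 in wildtype against 10.9 and 10.1. Folds of the genotypes did not overlap in 41.6% of those regions with knockout higher and in 9.04% with knockout lower, so a higher raw fold in knockout is given below as a value only. Of 8 epithelial marker genes, 6 to 7 had a peak within 1 kb of a gene end among the top peaks of the wildtype libraries and 8 in the knockout libraries. The counts were 4 to 5 and 4 of 6 neuronal markers, 3 to 4 and 3 of 6 mesenchymal markers, 3 to 4 and 3 of 5 glial markers, and 2 and 1 to 2 of 5 blood and endothelial markers. Peaks at markers of other cell types were thus listed in both genotypes, and their part in the results below was not tested.

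The promoters of 6 of the 7 genes were weakly open or without a peak in either genotype. Neurod4 was the exception. A peak over its start held list ranks of 12269, 6022 and 9882 in wildtype against 19336 and 19684 in knockout. Every one of these placed it among the 50000 strongest peaks of its library. A weak peak in the Neurod1 promoter window ranked 81535, 82592 and 50542 in wildtype against 77672 and 128599 in knockout, so it missed that limit everywhere. Weak Neurog1 promoter peaks were listed in wildtype replicate 1 (rank 80065) and in both knockout replicates (75732 and 116080). Nhlh1 had them in the same 3 libraries, at 80711, 91980 and 132393. Nhlh2 had one in all 3 wildtype lists (97260, 96410 and 79657) and in knockout replicate 1 (172729). No promoter peak was listed for Neurod2 or Neurod6 in any ATAC library. The 2 promoters richest in CpG, those of Neurog1 and Neurod1, were therefore not the open ones.

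The 7 genes differed in how much strong open chromatin surrounded them. Nhlh1 had 11 to 12 of the 50000 strongest peaks of every library within 100 kb. Neurod6 had 2 to 3 and Neurod4 4 to 5. Those numbers overlapped between the genotypes, as did those of Neurod1 (7, 7 and 9 in wildtype, 7 and 7 in knockout). Neurod2 had 10, 5 and 7 such peaks in wildtype and 14 in each knockout library. Neurog1 had 5, 3 and 1 against 8 and 6, and Nhlh2 had 2 in each wildtype library against 6 and 5. At Neurod2, Neurog1 and Nhlh2 both knockout libraries thus lay above all 3 wildtype libraries, as they did at 31.6% of all coding genes. At none of the 7 did both lie below, as at 10.9% of all coding genes.

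**Figure D1:**
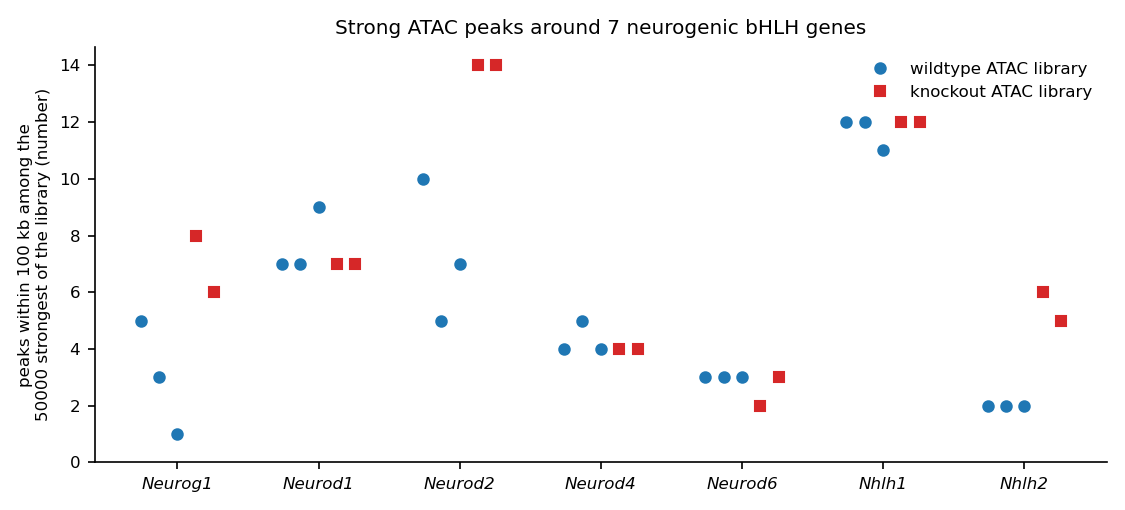
Number of peaks within 100 kb of each gene among the 50000 strongest of each library (y axis), by gene (x axis); each point is 1 ATAC library, wildtype as circles and knockout as squares. The knockout points stand above the wildtype points at Neurog1 (8 and 6 against 1 to 5), Neurod2 (14 and 14 against 5 to 10) and Nhlh2 (6 and 5 against 2), and not at the other 4 genes; 31.6% of all coding genes show the same separation.

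Windows reaching 250 bp to either side of the summits of these peaks were merged over libraries into regions. Of the 66 regions near the 7 genes, 12 were found among the strongest peaks of the 2 knockout libraries and of none of the wildtype libraries (knockout-only), where 7.96% of all regions were. Only 2 had the reverse pattern, present in the 3 wildtype libraries and neither knockout library (wildtype-only), where 6.57% of all regions did. A further 23 were in all 5 libraries (shared; 37.2% of all regions), and 29 had other patterns. The knockout-only regions were 5 at Neurod2, 3 at Nhlh2, 2 at Neurog1 and 1 each at Neurod1 and Nhlh1. The wildtype-only regions lay near Neurod1, 72.8 kb upstream, and near Nhlh1, 74.4 kb downstream. The regions are not all those genes' own: 18 were nearest to 1 of the 7 genes and 48 to another coding gene, and of those 18, 5 were knockout-only and 0 wildtype-only.

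The change in rank was tested with limma on log2 rank over the 61042 regions that had a peak in all 5 full lists, with ranks recounted among them and Benjamini-Hochberg adjustment over all of them. A positive difference (knockout minus wildtype) is a weaker rank in knockout and a negative one a stronger rank. Of the 66 regions 51 could be fitted. Of these, 6 passed as weaker in knockout (9.88% of all fitted regions did) and 8 as stronger (10.7%), at adjusted p below 0.05. The shares near the 7 genes were thus 11.8% and 15.7%, near those of the genome. The median difference was -0.19 near the 7 genes and 0.03 over all regions. Over all fitted regions 31393 differences were above 0 and 29649 below, and near the 7 genes 21 and 30. How many coding genes have all their fitted regions on the same side was not counted. Ranks of the 2 genotypes did not overlap in 12 regions as weaker (27.8% of all fitted regions) and in 20 as stronger (28.4%). In a bulk tissue, fewer cells with an open region and less opening per cell cannot be told apart.

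None of the 7 genes had calls in both directions, which Neurod6 and Nhlh1, with 1 call each, could not have. Every called region near Neurod1 (2), Neurod4 (2), Neurod6 (1) and Nhlh1 (1) was weaker in knockout, and every called region near Neurog1 (4), Neurod2 (2) and Nhlh2 (2) was stronger. A weaker call thus lay near 4 of the 7 genes, as near 33% of all coding genes, and a stronger one near 3, as near 58.2%. The share of all coding genes with calls in both directions was not counted. In the lists read below, such genes were 4 of 16 other bHLH genes, 2 of 12 partners and inhibitors, 3 of 15 upstream regulators and 4 of 27 neuroblast genes. Those lists include genes with fewer than 2 calls, and neighbours such as Olig1 and Olig2 share calls. They therefore give no base rate for the 7 genes. Whether the genes differ in direction was not tested. The weaker calls lay beside a median of 15.5 coding genes within 500 kb and the stronger beside 14. Over all regions the medians were 6 for weaker and 17 for stronger calls, so calls moved with gene density across the genome; its part near these genes was not tested. Calls near the marker genes were uneven as well: 3 weaker and 23 stronger of 127 fitted regions for epithelium, 2 and 15 of 67 for glia, 4 and 9 of 60 for blood and endothelium, 8 and 7 of 48 for neurons and 4 and 4 of 44 for mesenchyme. Their part in the calls near the 7 genes was not tested.

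**Figure D2:**
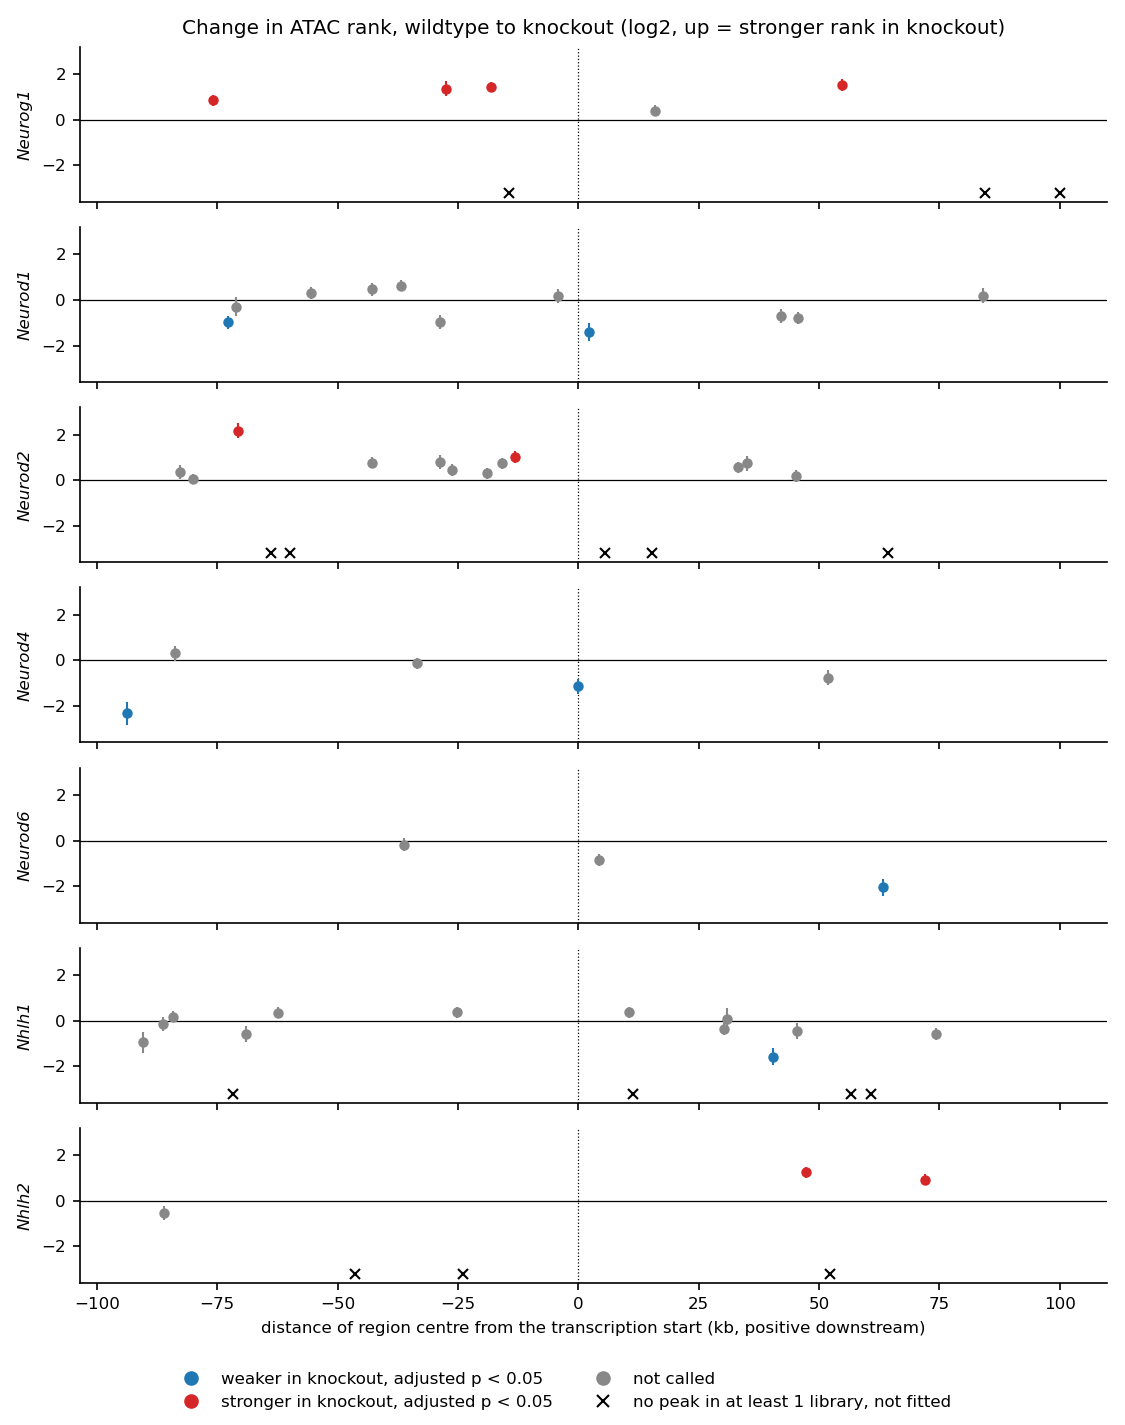
Difference in log2 ATAC rank between genotypes (y axis, up is a stronger rank in knockout, bars are standard errors) for each open region by the distance of its centre from the transcription start in kb (x axis, positive downstream), 1 panel per gene. Coloured points passed limma at adjusted p below 0.05, grey points did not, and crosses mark regions without a peak in at least 1 library. Points near Neurog1 and Neurod2 all lie above 0 and those near Neurod6 all below it. How many coding genes have all points on the same side was not counted.

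Neurog1, the determination gene of otic neuroblasts, gained rank in the knockout around but not at the gene. Its 8 regions all lay outside the gene, the nearest 13.9 kb from it. All 5 fitted regions had a stronger mean rank in knockout, with a median difference of -1.37, and 4 of them passed. The region nearest to Neurog1 among these, 18.1 kb upstream (chr13:56270053-56270569), stood at 55971, 53975 and 60798 in wildtype against 22211 and 19595 in knockout. The groups did not overlap, and the difference was -1.45 (SE 0.23, limma adjusted p = 0.00782). Its fold was 5.02, 4.08 and 2.33 in wildtype against 14.0 and 15.6 in knockout. The next, 27.5 kb upstream and nearer to the chemokine gene Cxcl14, ranked 31608, 56974 and 59257 against 17796 and 18835 (-1.37, SE 0.32, limma adjusted p = 0.0253). Here wildtype replicate 1 stood closer to the knockout libraries than to the other wildtype libraries.

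The strongest region near Neurog1 lay 54.8 kb downstream, nearest to Tifab (chr13:56196917-56197944). It was in all 5 libraries, at 18831, 25365 and 24795 in wildtype against 7043 and 8702 in knockout, a difference of -1.54 (SE 0.26, limma adjusted p = 0.00911). The ranks were apart. The folds were 12.5, 8.26 and 7.28 against 15.1 and 15.3, and ranking by fold ended the call (adjusted p = 0.188). A knockout-only region 75.8 kb upstream also passed (-0.85, SE 0.24, limma adjusted p = 0.0443), but in none of the 5 fits that left out 1 library. Of the 3 regions that could not be fitted, all were missing from the full list of wildtype replicate 3. One of them, 14.5 kb upstream of Neurog1, ranked 110395 and 89904 in the other wildtype lists and 49606 and 54296 in the knockout lists.

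Neurod1, which follows Neurog1 in the neuroblast, had the clearest peak inside a gene body. The region 2.3 kb downstream of the start (chr2:79454074-79454587) ranked 8737, 7027 and 4014 in wildtype against 21061 and 13142 in knockout, a difference of 1.41 (SE 0.38, limma adjusted p = 0.0392). Both knockout libraries ranked it below all wildtype libraries. Its fold did not separate them: 20.7, 16.6 and 14.9 in wildtype against 15.5 and 20.3 in knockout, and ranking by fold ended the call (adjusted p = 0.186). It was still among the 50000 strongest peaks of all 5 libraries. The second call was the wildtype-only region 72.8 kb upstream, nearest to Itprid2, which ranked 33492, 31010 and 21498 against 53294 and 57865 (0.98, SE 0.27, limma adjusted p = 0.0420; 0.0711 when ranked by fold and 0.0206 on quantile-normalized log2 fold). Quantile normalization gives the folds of all libraries the same distribution before the fit. All 11 regions near Neurod1 were fitted, and the other 9 did not pass, with 4 differences above 0 and 5 below.

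Neurod4, a relative of Neurod1 that acts in differentiating neuroblasts, had a weaker rank at its own start, in a call close to the limit. The region over the start (chr10:130279953-130280518) ranked 12601, 6149 and 10120 in wildtype against 20061 and 20340 in knockout (1.13, SE 0.33, limma adjusted p = 0.0488). All 3 wildtype libraries ranked it above both knockout libraries. The folds, however, were 20.4, 17.9 and 12.4 in wildtype against 22.7 and 18.5 in knockout, so by fold the promoter was no lower in knockout and the call ended (adjusted p = 0.844). It also ended on quantile-normalized log2 fold (0.04, limma adjusted p = 0.917) and with replicate number added to the fit (1.20, limma adjusted p = 0.0504). A region 93.7 kb upstream, nearest to Tespa1, had the largest difference of the 6 weaker calls. It ranked 14800, 7305 and 3912 against 36969 and 38489 (2.33, SE 0.50, limma adjusted p = 0.0190; 0.0975 when ranked by fold), with folds of 14.5, 14.8 and 15.8 against 13.9 and 10.5. In fold too, no knockout library reached a wildtype library there.

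Neurod6, a factor of maturing neurons, had the only one of the 6 weaker calls that also passed both when ranked by fold and on quantile-normalized log2 fold. Its region 63.2 kb downstream of the start (chr6:55617794-55618324), with Neurod6 the nearest coding gene, ranked 16125, 9518 and 6629 in wildtype against 46547 and 37550 in knockout. The groups were far apart, by 2.06 on the log2 scale (SE 0.38, limma adjusted p = 0.0124). The folds of 16.2, 13.4 and 14.1 fell to 9.82 and 10.8, and the adjusted p was 0.0281 when ranked by fold and 0.0254 on quantile-normalized log2 fold. All 3 fitted regions of Neurod6 had a weaker mean rank in knockout. The one 0.5 kb past the 3′ end of the gene (list ranks 29478, 18115 and 21530 against 45169 and 46198) did not pass (0.86, limma adjusted p = 0.0622).

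Regions near Neurod2, the other factor of maturing neurons, moved the opposite way, in a neighbourhood of 34 coding genes within 500 kb. Over all fitted regions, 29649 of 61042 had a stronger mean rank in knockout. Near Neurod2 all 12 fitted regions had one, from -2.18 to -0.05, and 2 passed. The larger lay 70.7 kb upstream inside Pgap3 (chr11:98399984-98400732) and ranked 29529, 41031 and 32322 in wildtype against 5492 and 10194 in knockout (-2.18, SE 0.32, limma adjusted p = 0.00669). Its folds were 10.5, 5.76 and 6.21 against 20.0 and 17.5. The other, 13.1 kb upstream, ranked 36474, 52269 and 42965 against 20555 and 22422 (-1.02, SE 0.25, limma adjusted p = 0.0295; 0.115 when ranked by fold). Of the 17 regions, 15 were nearest to other genes, among them Cdk12, Stard3 and Erbb2. The 2 nearest to Neurod2, at 1.0 and 10.9 kb from the gene, were knockout-only and had no peak in at least 1 wildtype list. They were not fitted, so none of the 12 fitted regions had Neurod2 as its nearest gene.

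Nhlh1 and Nhlh2, closely related factors expressed in postmitotic neuroblasts, differed in their calls. Near Nhlh1 8 of 16 regions were shared. The strongest in wildtype, 90.5 kb upstream near Dcaf8, had list ranks of 3214, 1766 and 3619 against 8494 and 3173 and did not pass (0.96, limma adjusted p = 0.195). The only call was 40.5 kb downstream inside Vangl2, a planar polarity gene, at 13807, 6322 and 14558 against 35629 and 29197 (1.57, SE 0.39, limma adjusted p = 0.0293; 0.112 when ranked by fold and 0.0461 on quantile-normalized log2 fold). The 2 regions nearest to Nhlh1 itself lay 4.9 and 5.9 kb past its end. The first was shared and did not pass (-0.36), and the second had no peak in knockout replicate 2.

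Near Nhlh2, a factor of hypothalamic and sensory neurons, 3 of 6 regions were knockout-only and both calls were stronger. The region 47.3 kb downstream (chr3:102057130-102057661) ranked 54040, 59852 and 59924 in wildtype against 25166 and 23650 in knockout (-1.25, SE 0.22, limma adjusted p = 0.0113), with folds of 5.48, 2.88 and 2.59 against 12.96 and 13.6. The ranks of the groups did not overlap. The region 72.0 kb downstream ranked 19534, 23186 and 25979 against 12367 and 11607 (-0.92, SE 0.24, limma adjusted p = 0.0341). Both lay nearer to the muscle gene Casq2, and the only region nearest to Nhlh2, 23.9 kb upstream, was knockout-only and not fitted.

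**Figure D3:**
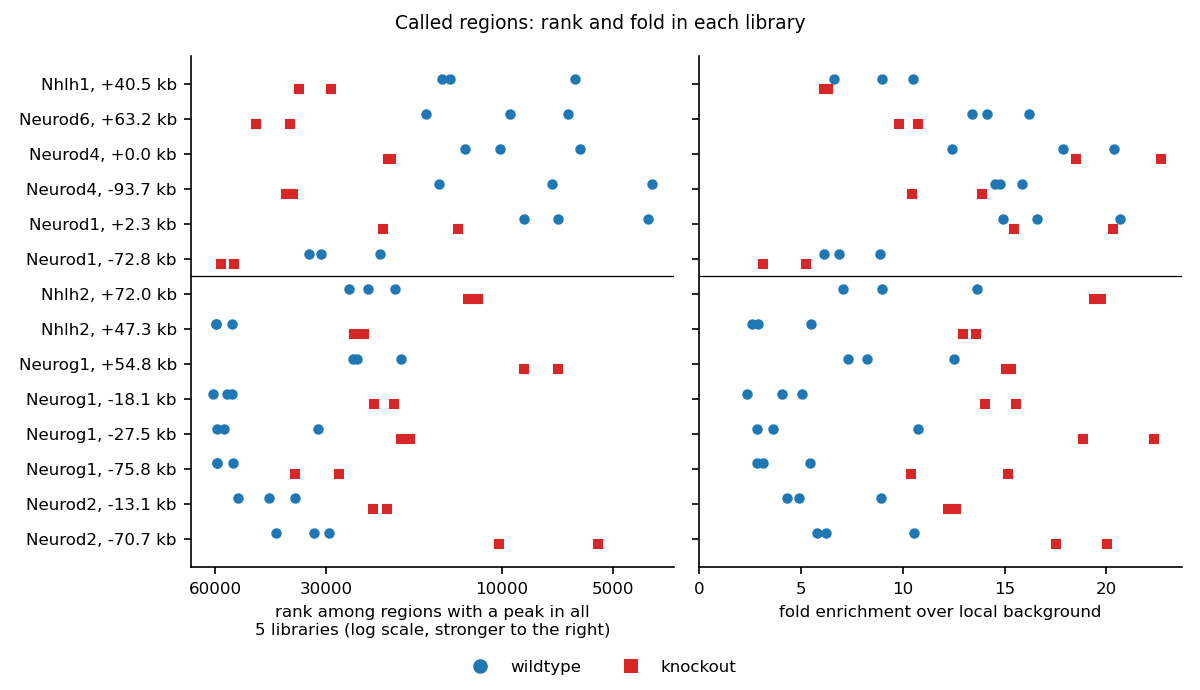
Rank among the fitted regions (left, log axis, stronger to the right) and fold enrichment over local background (right) of the 14 called regions, named by gene and distance from its start; circles are the 3 wildtype and squares the 2 knockout libraries. Above the line are the 6 regions weaker in knockout, whose folds overlap between genotypes at the Neurod1 region 2.3 kb downstream and at the Neurod4 start; below it are the 8 stronger regions, whose raw folds are higher in knockout without overlap, as in 41.6% of all fitted regions.

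The calls rested on few libraries. Without wildtype replicate 1 all 6 weaker and 7 of the 8 stronger regions passed, and regions not called before raised the counts near the genes to 10 and 8. Without knockout replicate 1 none of the 14 passed (limma), and of the genome's 6030 weaker and 6541 stronger calls 522 and 564 were left. Without wildtype replicate 2 none of the 6 weaker and 4 of the 8 stronger regions passed, without wildtype replicate 3 they were 2 and 4, and without knockout replicate 2 they were 1 and 2. The signs of all 14 differences held in these fits. The Neurod6 region stayed between 1.83 and 2.40, the Neurog1 region 18.1 kb upstream between -1.55 and -1.37, and the Neurod2 region inside Pgap3 between -2.64 and -1.74. Restricting the count to regions nearest to 1 of the 7 genes left 3 weaker (in Neurod1, at the Neurod4 start and downstream of Neurod6) and 1 stronger (upstream of Neurog1).

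For likeness, the best-ranked region within 1 kb of a gene end was compared over the 5 ATAC libraries with those of 13035 coding genes, by the largest gap in log2 rank. The rule was written for Neurog1 and Neurod1, but neither had a fitted region that close, so it was applied to Neurod4 and Neurod6, a choice made after their values were seen. The closest to Neurod4 were Arfgef3 (gap 0.19), Ust (0.20) and Mybpc1 (0.24). The closest to Neurod6 were Ooep (0.21), Bhlhe22 (0.23), itself a neuronal bHLH gene, and Pde10a (0.23).

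No Sox4 site was found near any of the 7 genes at the limits used here. A site was a summit window of the same width among the 20000 strongest peaks of at least 2 of the 3 Sox4 replicates, and 24.3% of all coding genes had 1 within 100 kb. There was no control antibody library, and the replicates shared little: any pair had 733 to 901 regions in common among their top peaks, 1.87% to 2.31% of the pair's regions. Near the 7 genes the full lists held 113, 35 and 18 Sox4 peaks in replicates 1 to 3, of which 12, 9 and 9 were among the top 20000. In replicate 1 the limit fell inside a tie of 16258 peaks with the same −log10 p of 6.16, from rank 12525 to 28782. In replicate 3 it fell inside a tie of 7479 peaks at 4.24, from rank 18962 to 26440. The tie in replicate 2 held 112 peaks, from rank 19901 to 20012. Order within these ties followed fold and then genome position, so it is arbitrary there.

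The best single Sox4 peak of all lay near Neurod6, in replicate 2, 12.3 kb downstream of the start (chr6:55668738-55669249). It ranked 228 with a fold of 6.31, and neither of the other replicates had a peak there. No ATAC library had a peak under it. Replicate 3 had no peak at all within 100 kb of Neurod6. Neurod2 had its best peak in replicate 1 (rank 1407), 93.3 kb downstream, again in 1 replicate and without an ATAC peak.

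Neurod4 had 4 of the 20000 strongest peaks of replicate 1, including 1 at 6.4 kb upstream of the start (rank 3998, fold 5.67) and 2 inside the gene (ranks 5746 and 8605). The median coding gene had 2 such peaks in that replicate. None of the 4 at Neurod4 overlapped an ATAC peak or a Sox4 peak of another replicate. In the full lists, Neurod4 had 2 places where peaks of different replicates overlapped and Neurod1 had 1. All came from peaks outside the top 20000. At the Neurod4 place 50.8 kb upstream, both peaks lay inside the ties described above (ranks 22516 in replicate 1 and 23557 in replicate 3). That it was not counted as a site thus rests on the arbitrary order within those ties. Neurod1 had a replicate 1 peak 2.5 kb upstream of its start (rank 5851) over weak ATAC peaks of the knockout libraries only. Its replicate 2 peak 42.5 kb upstream (rank 19910) lay in a shared ATAC region, at list ranks 19264, 14975 and 13899 in wildtype against 9365 and 13050 in knockout.

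At Nhlh2 a replicate 3 peak (rank 12660, fold 3.07) covered the start of the gene and part of the promoter printed above, whose window holds 4 E-boxes and no Sox core. It overlapped the weak ATAC peaks of all 3 wildtype libraries and of knockout replicate 1. The best replicate 3 peak near Nhlh2 ranked 2156, 9.6 kb downstream of the start. Nhlh1 had its best peak in replicate 1 (rank 2675), 66.8 kb upstream, with no ATAC peak. Neurog1 had no replicate 1 peak among the top 20000, though its best, at rank 24543, lay inside the tie at that limit. The peak just inside the gene, 0.2 kb from the start, ranked 49199 in replicate 1 and was absent from the others. Over all 7 genes, 15 of 113, 4 of 35 and 2 of 18 Sox4 peaks overlapped an ATAC peak of at least 1 wildtype library. The share over all Sox4 peaks of each replicate was not counted, so whether these loci differ from the genome in this is not known.

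**Figure D4:**
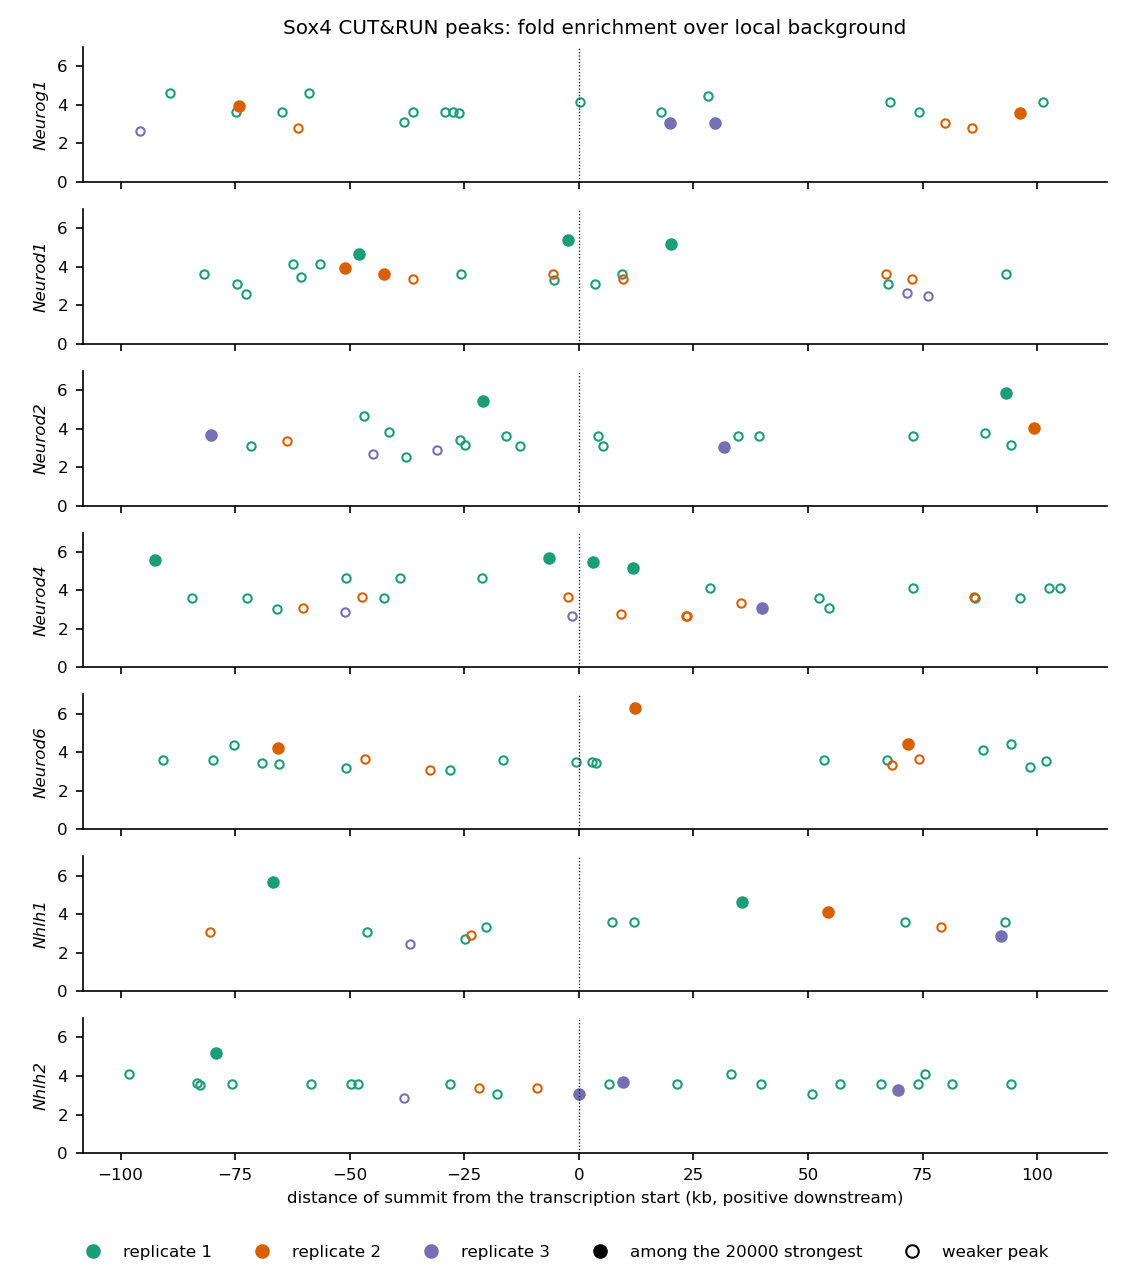
Fold enrichment over local background (y axis) of each Sox4 CUT&RUN peak by the distance of its summit from the transcription start in kb (x axis, positive downstream), 1 panel per gene and 1 colour per replicate; filled points are among the 20000 strongest of their replicate. The highest point is the replicate 2 peak near Neurod6 at a fold of 6.31, and no filled points of different replicates share a site.

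A second deposited list labelled as Sox4 replicate 1, whose peak names carry another library tag, gave a different count. Used in place of the first, it placed 3 sites near the 7 genes. One was the Neurod6 peak of rank 228 in replicate 2 (rank 15842, fold 4.14 in the second list) and another lay 68.2 kb from Neurod6 (rank 13161, with replicate 2 at 5194). The third was the Nhlh2 promoter (rank 17604, fold 3.87, with replicate 3 at 12660). This list is long, with 417444 peaks and 218 of its merged peaks near the 7 genes, and it shared 604 regions with the first list of replicate 1, 1097 with replicate 2 and 860 with replicate 3.

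The wider pathway was read from 4 lists of genes that act with or around these factors. Calls were counted within 100 kb of each gene, and which coding gene lay nearest to them was not read. Among 16 other proneural and neuronal bHLH genes, 12 of 128 fitted regions were weaker and 11 stronger in knockout, with a median difference of 0.04. Neurog2, a close relative of Neurog1, had 3 weaker calls (1.84 for the best, limma adjusted p = 0.00911). Bhlhe23 had 3 stronger calls (-2.78 for the best, limma adjusted p = 0.00516) and Atoh7, the retinal ganglion cell factor, 1 (-2.49, limma adjusted p = 0.00272). The best calls lay 79120 bp from Neurog2, 64000 bp from Bhlhe23 and 74764 bp from Atoh7. At Atoh1, the hair cell factor, 2 of 6 regions were wildtype-only and none of the 4 fitted passed.

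Among 12 E proteins and inhibitors, which pair with bHLH factors or block them, 11 of 164 fitted regions were weaker and 28 stronger (median -0.28). The E protein gene Tcf3 had 4 stronger calls (-5.04 for the best, limma adjusted p = 0.00160) and 1 weaker (0.92, limma adjusted p = 0.0341), and Id4 and Id1, whose products keep E proteins from DNA, had 2 and 5 stronger calls and 0 weaker. Hey2, a Notch effector, had 4 weaker calls and 0 stronger (2.76 for the best, limma adjusted p = 0.00399). Among 15 regulators upstream of otic neurogenesis, 16 of 221 were weaker and 33 stronger (median -0.10). Eya1, required for otic neurogenesis, had 5 weaker calls and 0 stronger (2.78 for the best), and Pax2 had 6 stronger and 0 weaker (-3.62). The Cre on the single-cell knockout label is named after Pax2, and the part of a transgene in these calls was not tested. Among 27 neuroblast and spiral ganglion genes, 26 of 280 were weaker and 29 stronger (median 0.02). The sensory neuron genes Isl1 (4 weaker calls, 3.07 for the best) and Pou4f1 (2, 2.53) had weaker calls and 0 stronger, while the neuronal tubulin gene Tubb3 had 7 stronger (-2.67 for the best) and 1 weaker. The Notch ligand gene Dll3 had 6 stronger calls (-5.92 for the best) and 0 weaker. Distances of these best calls varied. They overlapped Eya1 and Pou4f1 and lay 3931 bp from Isl1 and 10286 bp (stronger) from Tcf3. Others were far from the named gene: 53767 bp from Pax2, 62891 bp (stronger) from Tubb3, 85243 bp from Hey2 and 90765 bp from Dll3. Of the 27 neuroblast genes, 14 had a weaker call within 100 kb, as did 33% of all coding genes, and 13 a stronger one, as did 58.2%.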

How the data were processed

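ATAC and Sox4 CUT&RUN files are MACS2 peak lists, 1 per library. Each peak's fold enrichment over local background was deposited by the authors as a ratio, and its −log10 p and −log10 q were deposited beside it. The submitters' processing notes name MACS2, STAR and deepTools (UMI-tools for Sox4 alone) and the builds GRCm38 and mm10, without versions of these tools. Names of the knockout lists state caller settings, and those of the wildtype lists do not. Wildtype lists hold no chromosome X, so autosomes alone were used.

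Peaks of a library that overlapped were joined under their strongest summit, then ordered by −log10 p. From each library the top 50000 ATAC or 20000 Sox4 peaks became windows reaching 250 bp to either side of the summit, joined into regions over libraries. Ranks were fitted with limma 3.58.1 (R 4.3.3) without a replicate term, since replicate numbers only name libraries, and adjusted by the Benjamini-Hochberg method over 61042 regions. Distances run to RefSeq gene bodies (100 kb) or starts. In data simulated on these regions, 12 of 100 regions weakened and 59 of 100 strengthened by 3 log2 units passed, with 0 false calls. Far fewer regions were changed there than the 6030 weaker and 6541 stronger calls of the real fit. The adjusted limit was therefore stricter in the simulation, which cannot give the recovery or the false calls of the real fit. The genes, lists and tests were chosen with earlier results of these data known. Named regions were each gene's best wildtype region, those within 1 kb of a gene end, wildtype-only, knockout-only and called ones; from the lists, up to 4 genes per direction. Not every one of these is described.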

Additional observations from a re-analysis of the deposited data

How the results depend on the processing

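Counts near the 7 genes moved with the limits set. Wildtype-only regions (2) became 5 with 100000 peaks per library and 0 within 50 kb or when only regions nearest to 1 of the 7 genes were counted, and lay between 2 and 4 when 1 library was left out. Knockout-only regions (12) became 6 with 25000 peaks and 5 when nearest to the genes (12 to 17 without 1 library). Shared regions (23) became 7 with 25000 peaks, 43 with 100000, 13 within 50 kb and 6 when nearest (24 to 27 without 1 library). Weaker calls (6) became 2 ranked by fold, 3 within 50 kb and 3 when nearest, and 0 to 10 without 1 library; stronger calls (8) became 5 with 25000 peaks, 4 within 50 kb and 1 when nearest, and 0 to 8 without 1 library. Over all regions, leaving out 1 library gave 522 to 6856 weaker and 564 to 6731 stronger calls; where a group kept 1 library, that library was assumed to vary like the others. Sox4 sites (0) became 1 with 39000 peaks per replicate, near Neurod4, and 3 with the other list of replicate 1; leaving out 1 replicate (0) cannot add a site. With the replicate block, which rests on a shared number and no known pairing, 5 weaker and 6 stronger calls stood near the genes and 6030 and 5897 over all regions. One named difference changed sign: the uncalled Neurod2 region 82.8 kb upstream went from -0.37 to 0.38 ranked by fold and 0.23 on quantile-normalized log2 fold. Counting by nearest gene and the quantile-normalized fold of named regions were added after seeing the data. Without read counts, no statement on depth could be made, and 2 knockout libraries limit every call.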
